A study of Mus musculus with 12 samples.

Results

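The cholesterol synthesis genes described here are 8 genes chosen by symbol, Hmgcs1, Idi1, Fdps, Fdft1, Sqle, Lss, Cyp51 and Insig1, from the 15964 genes that the annotation of the arrays names. All probe sets whose annotation gives exactly 1 of these symbols were taken, 20 of 36701 in all. Of these genes 7 encode enzymes and 1, Insig1, a regulator of the pathway, whereas no receptor for lipoprotein uptake is among them, so that uptake itself was not analysed here. RNA was compared between populations of MIN6 cells, a β-cell line from an insulinoma of a mouse with an SV40 T antigen transgene expressed in islet β cells. Clone 4 (C4) is 1 limiting-dilution subclone of these cells, taken at low passage, and both lines shared their culture conditions. It was used at passages 40 to 50 (C4-HP) and 17 to 20 (C4-LP), and the parental cells at passages 35 to 40 (Pr-HP) and 17 to 20 (Pr-LP). Pr-HP are the non-responder cells, which had lost glucose-stimulated insulin secretion (GSIS), and the other 3 populations are the responder cells. Each population was measured on 1 array of each of 3 Affymetrix chips (A, B and C), 12 arrays in all. With no replicate arrays the precision is limited by their number, and C4 against Pr is a comparison of 1 clone with the cells it came from.

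Cells make cholesterol from acetyl-CoA. Hydroxymethylglutaryl-CoA synthase (Hmgcs1) opens the mevalonate route, isopentenyl diphosphate isomerase (Idi1) and farnesyl diphosphate synthase (Fdps) build the isoprenoid chain, and squalene synthase (Fdft1) commits it to sterols. Squalene epoxidase (Sqle), lanosterol synthase (Lss) and lanosterol demethylase (Cyp51) carry out steps that follow. The genes of the route are switched on together by the SREBP transcription factors when membrane sterol is low, and Insig1, itself an SREBP target, holds the SREBP precursor with its escort Scap in the endoplasmic reticulum when sterol is plentiful. In β cells cholesterol is a component of the plasma membrane and of the insulin granules, and both too much and too little of it are known to impair insulin secretion.

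RefSeq promoter windows (build GRCm38.p6) were matched by symbol for 5 of the 8 genes. The 250 bases before the annotated start are printed for Hmgcs1 and Idi1, which were lower in both clone 4 populations than in both parental ones, and for Cyp51 and Insig1, which were not, so that the 2 kinds of pattern can be set against their sequences. The fifth window, of Lss, which was also lower in both clone 4 populations, is given by its matches alone. Capitals mark matches, on either strand, to TCACNCCAC (an SREBP-binding element, N being any base), to its shorter core CACNCCAC, to CCAAT (NF-Y) and to GGGCGG (Sp1), the factors that act beside SREBP at sterol-regulated promoters. Every match to the first also holds the second.
Hmgcs1, chr13:119690101-119690350, plus strand: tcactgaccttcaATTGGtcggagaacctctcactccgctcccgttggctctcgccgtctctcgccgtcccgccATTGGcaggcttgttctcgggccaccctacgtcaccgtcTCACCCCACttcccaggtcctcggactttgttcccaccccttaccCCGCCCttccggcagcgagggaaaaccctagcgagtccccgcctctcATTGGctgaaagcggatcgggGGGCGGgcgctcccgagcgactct
Idi1, chr13:8885356-8885605, plus strand: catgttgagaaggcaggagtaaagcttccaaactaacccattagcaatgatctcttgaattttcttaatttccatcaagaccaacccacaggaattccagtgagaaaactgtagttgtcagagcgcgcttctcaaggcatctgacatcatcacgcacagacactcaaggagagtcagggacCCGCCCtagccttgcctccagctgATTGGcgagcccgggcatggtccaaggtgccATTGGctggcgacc
Cyp51, chr5:4104698-4104947, minus strand: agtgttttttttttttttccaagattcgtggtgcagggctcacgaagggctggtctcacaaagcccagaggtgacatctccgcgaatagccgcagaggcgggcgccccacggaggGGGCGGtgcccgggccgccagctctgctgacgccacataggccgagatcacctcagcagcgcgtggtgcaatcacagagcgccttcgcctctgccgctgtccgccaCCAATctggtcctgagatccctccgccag
Insig1, chr5:28071162-28071411, plus strand: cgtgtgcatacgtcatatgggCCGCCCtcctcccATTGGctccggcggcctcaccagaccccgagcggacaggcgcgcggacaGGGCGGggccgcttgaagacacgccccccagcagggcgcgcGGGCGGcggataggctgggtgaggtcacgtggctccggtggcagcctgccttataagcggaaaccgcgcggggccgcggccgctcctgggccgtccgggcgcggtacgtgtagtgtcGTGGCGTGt

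Only the Hmgcs1 window of these 4 held TCACNCCAC, at position -137 counted from the start, where -1 is the base before it. This motif occurs in 1.05% of the 32851 windows of the same length. The shorter CACNCCAC, found in 5.29% of windows, occurred in addition in Insig1 at position -9. CCAAT matched 3 times in Hmgcs1, 2 times in Idi1 and 1 time each in Cyp51 and Insig1, and 33.8% of all windows hold at least 1 match. GGGCGG matched 2 times in Hmgcs1, 1 time each in Idi1 and Cyp51 and 3 times in Insig1, against 32.7% of windows with a match. The Lss window held neither of the SREBP motifs, 1 match to CCAAT and 2 to GGGCGG. All 5 windows thus held CCAAT and GGGCGG, the genes that were lower in clone 4 as well as those that were not. A match describes these letters alone.

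In 5 of the 8 genes both clone 4 populations had lower intensities than both parental ones, as in 18.0% of all genes tested, by less than 1.5-fold on average and without passing the test. Fdps, Idi1, Fdft1 and Hmgcs1 stood in clone 4 at 0.684, 0.719, 0.739 and 0.742 times their mean intensity in parental cells. Lss stood at 0.861 times, with a gap of a few units between its nearest populations, while Sqle, Cyp51 and Insig1 were at 0.983, 0.981 and 1.13 times. No gene of the 8 passed the limma test in any comparison. Values are linear intensities of probe sets, and a gene with several probe sets is given by that with the highest mean. Since probe sets differ in how strongly they bind, levels are compared between populations and not between genes. In bulk RNA, less RNA per cell and fewer cells with the RNA cannot be told apart.

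**Figure D1:**
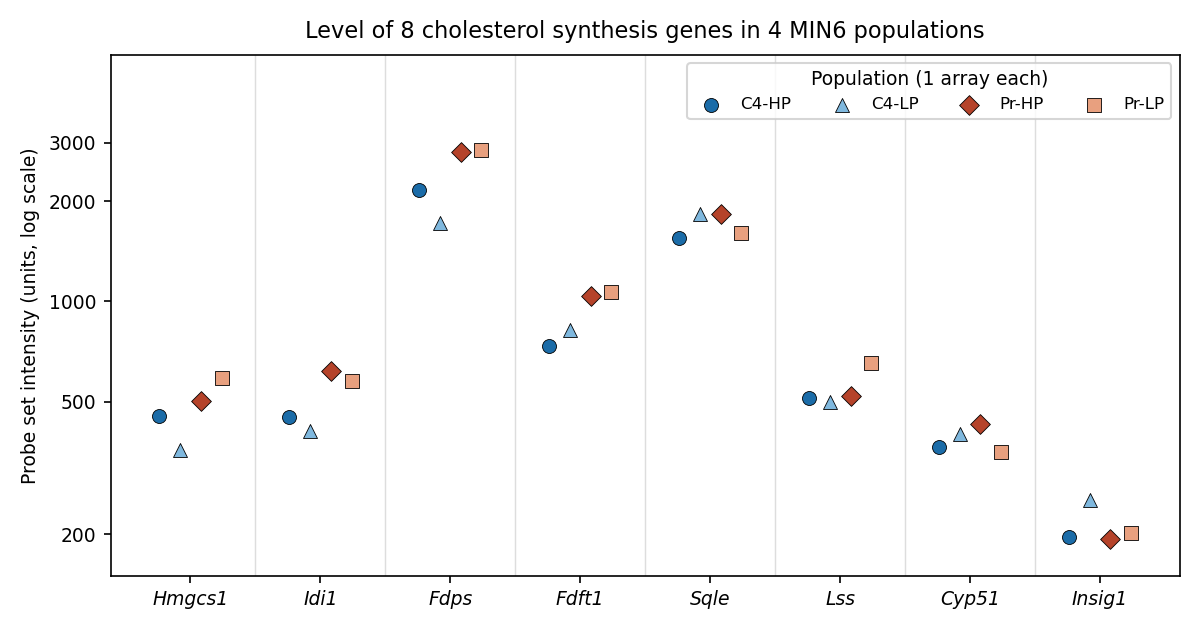
Intensity of the 8 genes in the 4 populations, 1 array each, on a log axis; heights of different genes cannot be compared, since they come from different probe sets. Within Hmgcs1, Idi1, Fdps, Fdft1 and Lss both clone 4 points (blue) lie below both parental points (red), from 357 and 454 against 504 and 589 in Hmgcs1 to 497 and 513 against 521 and 652 in Lss.

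Hmgcs1 had intensities of 454 in C4-HP and 357 in C4-LP, against 504 in Pr-HP and 589 in Pr-LP. The 2 lines did not overlap, and the lowest and highest of the 4 values belonged to the 2 low-passage populations. The log2 difference, clone 4 minus parental cells, was -0.44 ± 0.20 (SE), with an adjusted p of 0.999 from limma.

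Idi1, the isomerase that supplies the starter unit of the chain, had 449 in C4-HP and 409 in C4-LP, against 618 in Pr-HP and 576 in Pr-LP. Its 2 clone 4 values were close to each other, as were its 2 parental values, and the ratio of clone 4 to parental cells was 0.727 at high passage and 0.711 at low passage. The log2 difference was -0.48 ± 0.11 (SE), the smallest SE of the 8 genes, with an adjusted p of 0.999 from limma. With no replicate arrays, this SE reflects how alike the 2 ratios were and a variance shared by the probe sets of the chip. Of the 12267 genes tested, 3.13% had a more negative difference than Idi1.

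Fdps had 2160 in C4-HP and 1719 in C4-LP, against 2818 in Pr-HP and 2857 in Pr-LP. The parental values were alike, and that of C4-LP was the farthest from them. Fdps had the most negative difference of the 8 genes, -0.56 ± 0.15 on the log2 scale (SE, adjusted p = 0.999, limma), and 2.22% of all genes tested were further below 0.

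Fdft1, whose product joins farnesyl units into squalene, had 733 in C4-HP and 820.3 in C4-LP, against 1039 in Pr-HP and 1064 in Pr-LP. Here the parental values again lay close together, but C4-HP was the lowest population. The log2 difference was -0.44 ± 0.12 (SE), and its adjusted p from limma was 0.999.

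Lss, which closes squalene epoxide to the first sterol, had 513 in C4-HP and 497 in C4-LP, against 521 in Pr-HP and 652 in Pr-LP. Pr-LP stood above the other 3 populations, which lay close together. The log2 difference was -0.21 ± 0.15 (SE, adjusted p = 0.999, limma), and without Pr-LP it was -0.04.

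Sqle, a second control point of the route, had 1546 in C4-HP and 1832 in C4-LP, against 1826 in Pr-HP and 1608 in Pr-LP. Its highest value exceeded its lowest 1.19-fold, the narrowest range of the 8 genes, and each line held 1 of its 2 higher values. The log2 difference was -0.03 ± 0.17 (SE).

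Cyp51, which removes a methyl group from lanosterol, had 365 in C4-HP and 401 in C4-LP, against 428 in Pr-HP and 353 in Pr-LP. The 2 parental populations were its extremes, with both clone 4 values between them. The log2 difference between the lines was -0.02 ± 0.16 (SE).

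Insig1, the regulator, had 196 in C4-HP and 252 in C4-LP, against 193.5 in Pr-HP and 202 in Pr-LP. C4-LP stood above the other 3 populations, which lay within 9 units of each other. Its log2 difference of 0.17 ± 0.14 (SE) was the only positive one among the 8 genes, with an adjusted p of 0.999 from limma.

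Over the 8 genes the median log2 difference between clone 4 and parental cells was -0.32, beside -0.0063 over all genes tested. Both clone 4 values lay below both parental values in 5 of the 8 genes, beside 18.0% of all genes tested, and above both in 0 of 8, beside 16.9%. limma called 0 of the 8, beside 0% of all genes. At an unadjusted p under 0.05 it had 3 of the 8 genes (Idi1, Fdps and Fdft1) and 623 of 12267. The fit had line and passage as terms and 1 residual degree of freedom, and with 2 populations a line the smallest two-sided exact permutation p is 0.333. When the mean of all probe sets of a gene was used instead, the median of the 8 was -0.14.

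Between single arrays both at high or both at low passage, the median log2 ratio of the 8 genes was -0.24 for C4-HP over Pr-HP and -0.38 for C4-LP over Pr-LP. The high-passage pair differs in passage as well as line, at passages 40 to 50 in C4-HP and 35 to 40 in Pr-HP. At low passage 2 of 8 genes were past 1.5-fold lower in clone 4, Fdps at 0.602 and Hmgcs1 at 0.606 times Pr-LP, beside 4.01% of all genes, and 0 were past 1.5-fold higher, beside 5.38%. At high passage 0 of 8 were past 1.5-fold lower, beside 4.59%, or higher, beside 3.84%, and Fdft1 had the lowest ratio, 0.705. None of the 8 was past 2-fold in either pair, beside 3.04% of all genes at low passage and 2.89% at high passage. The ratios of Idi1 and Fdft1 were alike at both passages, whereas Hmgcs1 stood at 0.901 times Pr-HP in C4-HP. These are ratios of 2 arrays, with no test.

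**Figure D2:**
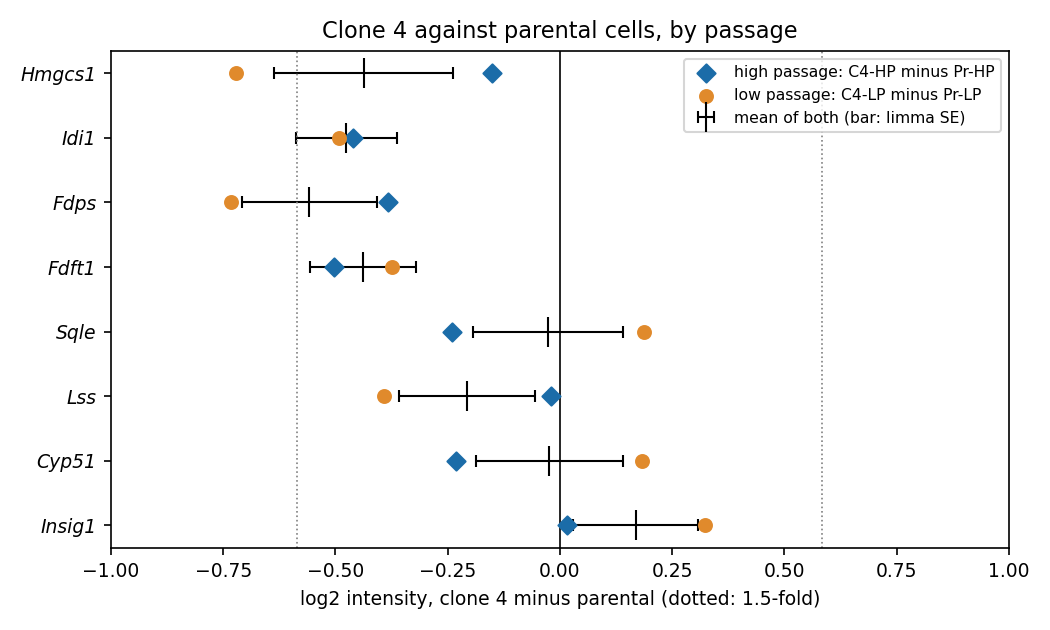
log2 intensity in clone 4 minus parental cells for each gene, at high passage (diamonds) and low passage (circles), with the mean of both and its standard error from limma. Idi1, Fdps, Fdft1 and Hmgcs1 lie left of 0 at both passages, between -0.73 and -0.15, while Sqle and Cyp51 have 1 point on each side.

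The study's own contrast sets Pr-HP against the responder cells, and it was computed here from the deposited values. Idi1 had 618 in Pr-HP and 478 ± 86.9 in the responder cells (SD, n = 3 populations), a log2 difference of 0.39 ± 0.23 (SE), the largest of the 8, with Pr-HP above all 3. Fdps had 2818 in Pr-HP and 2245 ± 574 in the responder cells, and Fdft1 had 1039 and 872 ± 171. In each of Fdps, Fdft1 and Hmgcs1 the responder population Pr-LP lay above Pr-HP, so the responder values fell on both sides of it. Cyp51 had 428 in Pr-HP and 373 ± 25.0 in the responder cells, with Pr-HP above all 3 of them and a log2 difference of 0.20 ± 0.13 (SE). For Sqle, Pr-HP had 1826 and the responder cells 1662 ± 150.5, and for Hmgcs1 504 and 467 ± 117. Lss and Insig1 were lower in Pr-HP, with 521 against 554 ± 85.4 and 193.5 against 217 ± 31.1. The median log2 difference of the 8 genes was 0.17, beside 0.00040 over all genes tested, and with the cell line as a block, which leaves the contrast of the parental arrays, it was -0.03. limma called 0 of 8, beside 0.0815% of all genes, with adjusted p between 0.677 and 0.931. At an unadjusted p under 0.05 there were 0 of 8 genes and 1219 of 12267. With 1 population against 3, the smallest exact permutation p is 0.25.

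With passage, Hmgcs1, Fdps, Lss, Sqle and Cyp51 went opposite ways in the 2 lines. The share of all genes that did so was not counted, so this is not given as a trait of these genes. Hmgcs1 had 454 in C4-HP and 357 in C4-LP, a ratio of 1.27, and 504 in Pr-HP and 589 in Pr-LP, a ratio of 0.855. For Sqle the order was the other way, with a ratio of high to low passage of 0.844 in clone 4 and 1.14 in parental cells. Idi1 alone of the 8 was higher at high passage in both lines, with 1.10 in clone 4 and 1.07 in parental cells, and Fdft1 and Insig1 were lower in both, at 0.894 and 0.776 in clone 4 and 0.977 and 0.959 in parental cells. With both lines in the fit, the log2 differences of high minus low passage ran from -0.21 (Insig1) to 0.15 (Fdps), with a median of 0.01 beside 0.0034 over all genes tested. limma called 0 of 8, beside 0% of all genes, and at an unadjusted p under 0.05 there were 0 of 8 and 457 of 12267. No gene of the 8 was past 1.5-fold in C4-HP over C4-LP, beside 3.23% of all genes lower and 2.16% higher, or in Pr-HP over Pr-LP, beside 4.94% lower and 5.62% higher. The shares of all genes past 2-fold were 1.37% in clone 4 and 3.70% in parental cells, with 0 of 8 in each.

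Of the 20 probe sets, 15 passed the filter on dim values, and 4 lay under the floor of their chip on all 4 arrays. The floor is the 20th percentile of the chip, which was 67.3 units for A, 58.6 for B and 29.1 for C, and a probe set was tested where at least 1 array exceeded the 40th percentile. All 8 genes had a tested probe set. A further probe set of Fdps (160424_f_at), of a kind that can match several related sequences, had 1886 in C4-HP and 1654 in C4-LP, against 2433 in Pr-HP and 2435 in Pr-LP. It thus had the same order of lines as the main one (99098_at), at 0.727 times. The other 4 Fdps probe sets were dim, with values between 20.0 and 113 units, and their ratios lay between 0.958 and 1.09 times. Of these only 165982_i_at (chip C) passed the filter, and its lines had the reverse order with no overlap. It had 101 in C4-HP and 105 in C4-LP, against 94.3 in Pr-HP and 94.9 in Pr-LP. The second probe set of Idi1 (164172_at, chip B) had 123 in C4-HP and 105 in C4-LP, against 148 in Pr-HP and 136 in Pr-LP, again with no overlap. For Lss the probe set on chip A (160737_at) had 475 in C4-HP and 387 in C4-LP, against 415 in Pr-HP and 666 in Pr-LP, so the 2 lines overlapped there. They overlapped too in 136392_at on chip C, with 92.2 in C4-HP and 103 in C4-LP, against 81.9 in Pr-HP and 117 in Pr-LP. Cyp51 gave different results by probe set, since 109608_at on chip B had 125.7 in Pr-HP and 78.1 ± 6.45 in the responder cells (SD, n = 3 populations), 1.61-fold, and 137321_at on chip C had 83.9 and 91.6 ± 5.21. Hmgcs1, Fdft1 and Sqle rest on a single probe set each, and the second probe set of Insig1 was under the floor.

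**Figure D3:**
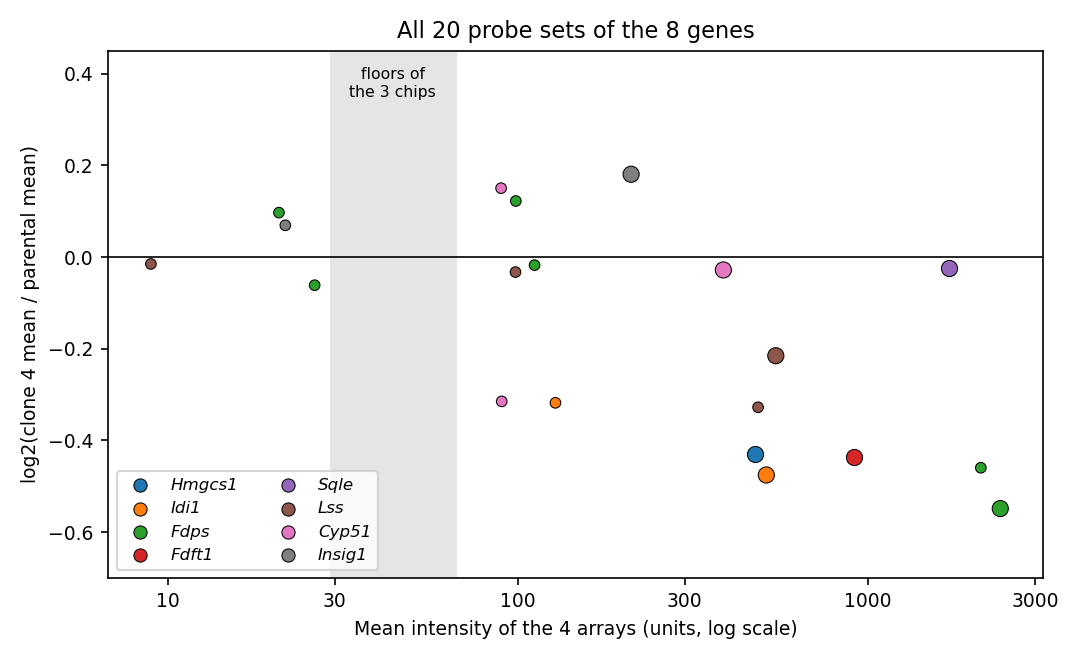
log2 ratio of the clone 4 mean to the parental mean against the mean intensity of the 4 arrays (log axis) for all 20 probe sets, with large points for the one that represents each gene and a grey band over the range of the 3 chip floors. The probe sets of Fdps at over 1000 units lie near -0.5, and its 4 dim ones lie near 0.

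The rest of the pathway was followed in 51 genes, 44 of them measured and 40 tested. limma called 0 of the 40 in every comparison, and 4 had an unadjusted p under 0.05 between the lines. Both clone 4 values lay below both parental values in 5 of the 40 and above in 9, beside 18.0% and 16.9% of all genes. The steps after squalene that are not among the 8 genes had a median log2 difference of -0.21 over 8 tested genes. Of these 7 were negative, beside 6347 of all 12267 genes tested, and in 2 of them both clone 4 values lay below both parental ones. Their median log2 ratio was -0.01 for C4-LP over Pr-LP and -0.17 for C4-HP over Pr-HP. The mevalonate and isoprenoid genes outside the 8, Mvk, Pmvk, Mvd and Ggps1, had a median of 0.10. Other probe sets of these genes disagreed. A dimmer one of Mvd (160770_at) had 271 in C4-HP and 284 in C4-LP, against 350 in Pr-HP and 336 in Pr-LP. For Mvk, 95632_f_at had 215 in C4-HP and 175 in C4-LP, against 228 in Pr-HP and 262 in Pr-LP. By contrast, Pmvk 167266_f_at had 293 in C4-HP and 290 in C4-LP, against 222 in Pr-HP and 280 in Pr-LP. Tested probe sets of Ggps1 had log2 differences from -0.07 to 0.20. Genes that use isoprenoids for other products, such as the farnesyltransferase subunits Fnta and Fntb, had a median of 0.17 over 5 tested genes. All 5 were positive, and both clone 4 values were above both parental ones in 4 of them. The exception was Fnta, with 704 in C4-HP and 599 in C4-LP, against 459 in Pr-HP and 784 in Pr-LP. The median was -0.09 over 11 genes of lipoprotein uptake and cholesterol transport, 0.04 over 6 of efflux and storage, and 0.00076 over 10 of fatty acid synthesis.

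Among the sterol genes Nsdhl and Msmo1, which act on the demethylation steps after Cyp51, had the most negative differences, and they were singled out after their values were seen. Nsdhl (98631_g_at) had 659 in C4-HP and 502 in C4-LP, against 999 in Pr-HP and 932 in Pr-LP, a log2 difference of -0.75. Its other probe sets had smaller differences, from -0.63 (93868_at) to -0.21 (98630_at). In 105991_at the lines overlapped, with 115 in C4-HP and 88.5 in C4-LP, against 112 in Pr-HP and 135 in Pr-LP. Msmo1 (160388_at) had 319 in C4-HP and 388 in C4-LP, against 545 in Pr-HP and 472 in Pr-LP, a difference of -0.53. Dimmer probe sets of Msmo1 did not share this order, with 77.4 in C4-HP and 79.3 in C4-LP, against 76.7 in Pr-HP and 74.4 in Pr-LP for 166363_r_at, and a ratio of 1.10 for 166364_at. Neither gene passed the test, with an adjusted p of 0.999 from limma. Stard4, a carrier of cholesterol between membranes that is an SREBP target, was singled out in the same way. It had 728 in C4-HP and 629 in C4-LP, against 1013 in Pr-HP and 1036 in Pr-LP, and its second probe set (113753_at) had 249 and 218 in clone 4 against 406 and 354 in parental cells. Root mean squared distance was taken from the mean centred log2 profile of the 8 genes over the 4 populations. By it the nearest of the pathway and fatty acid synthesis genes were Tm7sf2 (0.104), Fads1 (0.107), Mvk (0.111), Dhcr7 (0.114) and Scd2 (0.119). All of them varied little.

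**Figure D4:**
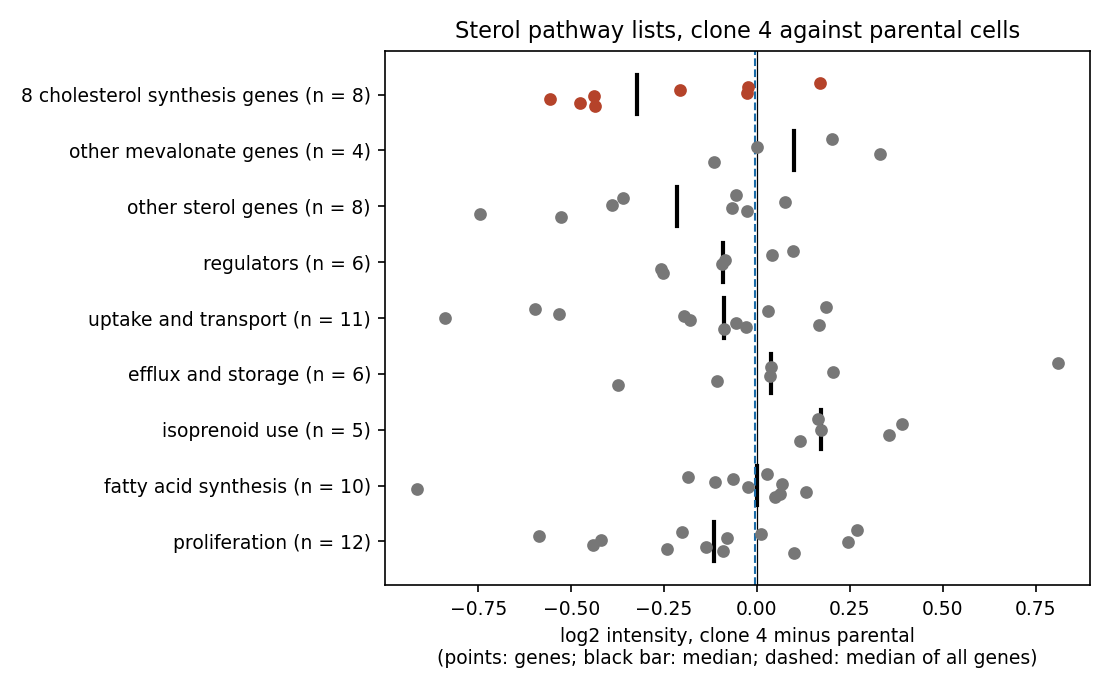
log2 difference, clone 4 minus parental cells, of each tested gene (points) with the median of each group (black bars) and the median of all genes tested (dashed line, -0.0063). The median of the 8 cholesterol synthesis genes is -0.32, that of the other sterol genes -0.21, and that of the genes of isoprenoid use 0.17.

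The regulators of the pathway varied without a common order of lines. Srebf1, which encodes the SREBP form best known for fatty acid genes, had 2052 in C4-HP and 1749 in C4-LP, against 1892 in Pr-HP and 2690.2 in Pr-LP. Pr-LP was also the highest population for Scap, with 521 in C4-HP and 724 in C4-LP, against 642 in Pr-HP and 839 in Pr-LP. Insig2, the second Insig gene, had 835 in C4-HP and 947 in C4-LP, against 1110 in Pr-HP and 812 in Pr-LP. Mbtps1 and Mbtps2 encode the Golgi proteases that release the active SREBP. Mbtps1 had 2362 in C4-HP and 2419 in C4-LP, against 2805 in Pr-HP and 2298 in Pr-LP, while its other probe set (95754_at) was lowest in Pr-HP. Mbtps2 lay between 119 and 129 in the 4 populations. Rnf139, for a ubiquitin ligase of the endoplasmic reticulum that binds Insig proteins, had 776 in C4-HP and 774 in C4-LP, against 649 in Pr-HP and 809.7 in Pr-LP. The probe set of Srebf2, the SREBP gene tied most closely to cholesterol synthesis, was under the floor on all 4 arrays, with 12.9 to 14.3 units, so that its level was not measured.

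The β-cell markers, 7 measured of 8, were all above the floor in the 4 populations, with Ins2 between 14771 and 15526 units. Single markers varied, as Slc2a2 had 1754 in C4-HP and 464 in C4-LP, against 499 in Pr-HP and 478 in Pr-LP, and Pcsk1 had 771 in C4-HP and 759.8 in C4-LP, against 1379 in Pr-HP and 425 in Pr-LP. Alpha-cell markers, 2 measured of 3, summed to 4277 in C4-HP and 6309 in C4-LP, against 10800 in Pr-HP and 937 in Pr-LP. The high sum in Pr-HP is Gcg alone, with 10552 in Pr-HP and 502 in Pr-LP, while Ttr was lowest in Pr-HP, at 248. The 3 haematopoietic markers, with Ptprc under the floor, summed to 2461 in Pr-HP and 878 to 905 in the other populations, which is Cd68 alone, at 1785 in Pr-HP and 177 to 209.7 in the others, since Cd14 had 643 in Pr-HP and 634 to 692 in the others. The part of these lists in the values of Pr-HP was not tested. A list of 12 measured proliferation genes summed to 19033 in C4-HP and 13546 in C4-LP, against 18069 in Pr-HP and 18129 in Pr-LP. Bright probe sets weigh most in this sum. C4-LP was the lowest population for all of these genes but Mcm4, lowest in Pr-HP at 859, and Rrm2, highest in C4-LP at 1202. A further probe set of Mcm5 (167677_r_at) was highest in C4-LP, at 2900, and lowest in Pr-HP, at 1883. C4-LP, with the lowest sum, was also the lowest population for Hmgcs1, Idi1, Fdps and Lss, and the part of the proliferation genes in those results was not tested. As a measure of RNA quality, Gapdh signal at the 3′ end over that at the 5′ end on chip A was 1.01 in C4-HP and 0.968 in C4-LP, against 0.867 in Pr-HP and 1.05 in Pr-LP, and its part was not tested. Array medians ranged from 214 to 216 for chip A, from 161.9 to 163 for chip B and from 92.5 to 92.9 for chip C.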

How the data were processed

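Biotin-labelled cRNA of the 4 MIN6 populations was measured on the 3 chips of the Affymetrix U74 set, version 2. The deposited values are intensities, 1 for each probe set and array, on a linear scale. The paper names the GeneChip software for its array analysis. Its table of pancreas-related genes gives the deposited intensities, as for Pdx1 and Iapp. Its list of responder and non-responder genes gives other intensities than the deposited ones for probe sets such as 103016_s_at of Cd68. Which processing gave the deposited values is therefore not settled here. How probes were summarised and arrays normalized is not given in the sources read here, and the 4 arrays of a chip have nearly identical distributions, so that a shift shared by most genes would not be seen. Genes were named from the platform annotation, which gave 1 symbol to 29131 of 36701 probe sets, several to 724 and no symbol to 6846, after 198 control probe sets had been left out.

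Values under the 20th percentile of a chip were raised to it, log2 was taken, and limma 3.58.1 under R 4.3.3 was fitted within each chip to the 23340 probe sets with at least 1 array above the 40th percentile, which gives 12267 genes. p-values are two-sided, were adjusted by Benjamini-Hochberg over the 3 chips together, and were called under 0.05. One fit set Pr-HP against the responder cells (2 residual degrees of freedom), and another had line and passage as terms (1 residual degree of freedom). The populations are not replicates of 1 condition. In the fit of Pr-HP, SEs and p-values reflect how the responder populations vary among themselves. In the fit with line and passage, they reflect how far the difference between the lines changed from low to high passage. There limma drew this variance toward one shared by the probe sets of a chip, with 1.996 to 2.3292 prior degrees of freedom. Single arrays were compared by 2-fold and 1.5-fold, without a test. Both fits were run on simulated data, as a check that the median estimate lay near the planted change. The simulated noise was independent between populations, so this does not test the p-values for these unlike populations. The members of the gene group, the gene lists and the motifs were chosen with earlier results of these data known. Named are all 8 genes and the measured regulators. Also named are pathway, fatty acid synthesis and proliferation genes past 2-fold in a pair with the brighter array at 100 units or more. The 5 pathway or fatty acid synthesis genes nearest in profile are named too. Nsdhl, Msmo1, Stard4 and the examples of other lists fall outside this rule and were chosen after their values were seen. Alternatives were the floor, the filter, an intensity trend in the variance, scaling, quantile normalization, the choice of probe set, the cell line as a block, a line or passage term alone and leaving out each population. For the fit with line and passage, the last 2 were chosen after the data had been seen.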

Additional observations from a re-analysis of the deposited data

Results flagged for a closer look

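In Hmgcs1, Fdps, Lss, Sqle and Cyp51 the difference between high and low passage had opposite signs in the 2 lines. How many of all genes tested had opposite signs was not counted. Each line has 1 array at each passage, and the difference between the lines was not tested. For Hmgcs1 the log2 difference of high minus low passage was 0.34 in clone 4 and -0.23 in parental cells, and the parental minus the clone 4 value was -0.57. Fdps, with 0.33 in clone 4 and -0.02 in parental cells, differed by -0.35, and Lss, with 0.05 and -0.33, by -0.37. The opposite order held for Sqle, at -0.25 in clone 4 and 0.18 in parental cells, which differed by 0.43, and for Cyp51, at -0.14 and 0.28, which differed by 0.41. In Fdps and Lss 1 of the 2 lines was within 0.05 of 0.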

How the results depend on the processing

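Between clone 4 and parental cells, Fdft1, Fdps, Hmgcs1, Idi1 and Lss kept a negative difference under all 12 alternatives, from -0.52 to -0.36 in Fdft1, -0.72 to -0.15 in Fdps, -0.61 to -0.26 in Hmgcs1, -0.54 to -0.40 in Idi1 and -0.37 to -0.04 in Lss. In these genes both clone 4 values lay below both parental ones. Only scaling, quantile normalization and the choice of probe set could therefore change their sign. The sign was lost in 2 alternatives for Cyp51, 2 for Sqle and 1 for Insig1. limma called 0 of the 8 genes under every alternative run. The median of the 8 genes between the lines moved to -0.14 with the mean of all probe sets of a gene, which brings in dim ones, against -0.32. With the cell line as a block the median of Pr-HP minus the responder cells was -0.026, against 0.17, since only the parental arrays then bear on it. The median of high minus low passage was -0.0099 after quantile normalization, against 0.01, and ran from -0.17 to 0.14 when each population was left out, so that it has no settled sign. With a threshold of 1.5-fold in place of 2-fold, 2 of the 8 genes were counted in C4-LP over Pr-LP, against 0. The labels give no replicate numbers and each group holds 1 array per chip, so no replicate block was fitted. The fit with line and passage compares the lines within low and within high passage, and the high-passage ranges of the 2 lines differ. Single arrays, an unknown normalization and probe sets near the floor limit these values, and for Sqle, Hmgcs1 and Fdft1 no second probe set carried the symbol.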

Other observations

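Some pathway and fatty acid synthesis genes other than the 8, and 1 proliferation gene, differed by more than 2-fold between single arrays, with no test. In Pr-HP over Pr-LP these were 2 of 40 pathway and 2 of 10 fatty acid genes, beside 3.70% of all genes. In C4-LP over Pr-LP they were 3 of 40 and 1 of 10, beside 3.04%. Of the 40, 1 was past 2-fold in C4-HP over Pr-HP, beside 2.89%, and 0 in C4-HP over C4-LP, beside 1.37%. Abca1, the exporter of cellular cholesterol, had 162 in C4-HP and 174 in C4-LP, against 116 in Pr-HP and 410.4 in Pr-LP, and its second probe set (94354_at) 139 and 164 in clone 4, against 63.1 in Pr-HP and 495 in Pr-LP. Mylip, for a ubiquitin ligase that degrades lipoprotein receptors, had 114 in C4-HP and 115 in C4-LP, against 291 in Pr-HP and 144 in Pr-LP. Scd1, a fatty acid desaturase, had 1073 in C4-HP and 909 in C4-LP, against 1375 in Pr-HP and 2516 in Pr-LP, while its probe set 94058_r_at had 249.6 and 245 in clone 4, against 197 in Pr-HP and 261 in Pr-LP. Fads2, a desaturase of polyunsaturated fatty acids, had 1778 in C4-HP and 1412 in C4-LP, against 1064 in Pr-HP and 2584 in Pr-LP, while its probe set 116843_at had 1244 and 922 in clone 4, against 882 in Pr-HP and 1148 in Pr-LP. Me1, the cytosolic malic enzyme, had 435 in C4-HP and 394 in C4-LP, against 619.95 in Pr-HP and 267 in Pr-LP. Lbr, a sterol reductase of the nuclear envelope, had 641 in C4-HP and 333 in C4-LP, against 490 in Pr-HP and 749 in Pr-LP. Cyp46a1, a cholesterol hydroxylase, had 176 in C4-HP and 343 in C4-LP, against 130.5 in Pr-HP and 150.4 in Pr-LP. Among the proliferation genes Mcm7, of the replicative helicase, had 1155 in C4-HP and 645 in C4-LP, against 1268 in Pr-HP and 1325 in Pr-LP. limma called none of them, with adjusted p at or above 0.210 in Pr-HP against the responder cells.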
